A study of Saccharomyces cerevisiae with 5 samples.

Results

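The mitochondrial ATP synthase has a catalytic head, called F1, that is held in place by a peripheral stalk and anchored in the inner membrane by a group of small subunits. The 9 nuclear genes for the stalk and for these membrane subunits were examined: ATP4, ATP5, ATP7 and ATP14 for the stalk, and ATP17, ATP18, ATP19, ATP20 and TIM11 (also called ATP21) for the membrane part. Members were the genes on this list with a probe set assigned to them alone. All 9 had such a probe set, ATP14 had a pair of them, and the 9 stood among 5656 genes with a single-gene probe set. All 9 passed the filter on dim genes and entered the test with 4243 genes in all.

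Transcripts were measured on 1-colour Affymetrix arrays in Saccharomyces cerevisiae BY4741, a haploid laboratory strain known for deletions of HIS3, LEU2, MET17 and URA3, and in its isogenic Δrsf2 mutant. RSF2 (YJR127C, also called ZMS1) encodes a zinc-finger protein, and the series asks about its part in growth on glycerol. Poly(A) RNA came from 3 wild-type and 2 Δrsf2 biological replicates, each grown in 50 ml of rich medium with glycerol as sole carbon source to an A600 of 0.6. The labels do not say how many clones of the mutant were used and also mention a timed shift out of dextrose medium that has no place in the design given for the series.

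On glycerol, yeast makes nearly all of its ATP by respiration, so that the proton gradient built by the respiratory chain must pass through the ATP synthase. Protons cross the membrane sector and turn a ring of subunits and the central stalk, while the peripheral stalk keeps the head from turning along. Some of the small membrane subunits, among them g (ATP20), e (TIM11) and k (ATP19), are found with the dimer of the enzyme. Subunits e and g are needed for stable dimers, and rows of dimers bend the inner membrane into cristae.

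The labels were checked on RSF2 itself. Its deposited signal was 203.8, 253.9 and 415.9 in wild-type replicates 1 to 3 and 1.9 and 3.3 in Δrsf2 replicates 1 and 2, and against a floor of 28.1 this is at least 9.90-fold lower. All signals below are in arbitrary units after each array was rescaled to a trimmed mean of 500, because Δrsf2 replicate 1 had been deposited at 100.1 and the other arrays at 500.3 to 500.7. Wild-type replicate 1 and Δrsf2 replicate 1 had a far higher CreX spike-in signal (56025 and 59709) than the other 3 arrays (2715 to 9393), and they are called the high spike-in arrays. For ACT1 the 3′ probe set over the 5′ one gave ratios from 1.69 to 2.76 in the wild type and of 4.91 and 1.55 in Δrsf2 replicates 1 and 2. For SPT15 the ratios ran from 1.12 to 1.34 over the wild-type arrays and were 2.01 and 2.50 in the mutant, so that both mutant arrays lay above every wild-type array. Of 10 control probe sets for ribosomal RNA, 9 had lower signals on either mutant array than on any wild-type array. The part of these ratios and of the ribosomal RNA signals in the results below was not tested. Of the genes deleted in the parent strain, URA3 lay under the floor in all 5 arrays, LEU2 and MET17 passed it mainly in Δrsf2 replicate 1 (up to 207.2 and 62.4), and the brighter HIS3 probe set stood above it in each, from 109.9 to 682.1. The MATa-specific gene MFA2 read 1027 to 4250 in the wild type, with 13184 and 1155 on the Δrsf2 arrays. The probe sets of MFA1, also MATa-specific, disagreed in Δrsf2 replicate 1, at 16443 and 2625. The MATa-specific STE2 and BAR1 were dim over the 5 arrays, at 136.8 to 180.5 and 151.1 to 287.6. The MATalpha-specific MF(ALPHA)1, MF(ALPHA)2 and STE3 stayed at or below 127.3, with STE3 at 80.3 to 127.3 not far below STE2. With 5 arrays the precision is limited throughout. Rescaling also hides any change in total mRNA, so a difference between the groups in RNA per cell cannot be seen here.

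Transcripts of ATP20 and ATP5 were about 2-fold lower by value in Δrsf2 than in the wild type, and those of the other 7 subunits differed by less than 1.4-fold. By value 7 of the 9 genes were lower in Δrsf2, against 52.3% of all genes tested, and their median log2 difference was -0.21 against -0.03 for all genes. For ATP5, ATP14 and ATP20 each mutant array lay under each wild-type array, which held for 8.27% of all genes, and no member was higher without overlap, which held for 6.74%. The count of 3 became 5 without Δrsf2 replicate 1, where 26% of all genes were lower without overlap, and 5 without Δrsf2 replicate 2 (30.3%). It became 2, with ATP14 lost, when arrays were centred on their medians (11.3%) or the probe sets of a gene were averaged (8.18%). Members higher without overlap numbered 2 without wild-type replicate 1, and 1 each without Δrsf2 replicate 1 and without Δrsf2 replicate 2. Without both high spike-in arrays 5 members were lower and 3 higher without overlap. The share of all genes higher without overlap was not counted in these settings, so these counts are not read further. Lower without overlap were 26.4% of all genes without wild-type replicate 1 and 46.8% without both high spike-in arrays. The member median became -0.48 without Δrsf2 replicate 1, where that of all genes was 0.02. Without wild-type replicate 1 it was -0.11, which is above the -0.20 of all genes, so the order of members and all genes turned there. No member passed the test across all genes: the limma adjusted p was 1.00 for each of the 9. With limma 0 of 4243 genes (0%) passed an adjusted p of 0.05, while before adjustment 137 genes had p under 0.05, with 97 of them lower (2.29%) and 40 higher (0.943%). ATP20 was the only member among them.

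**Figure D1:**
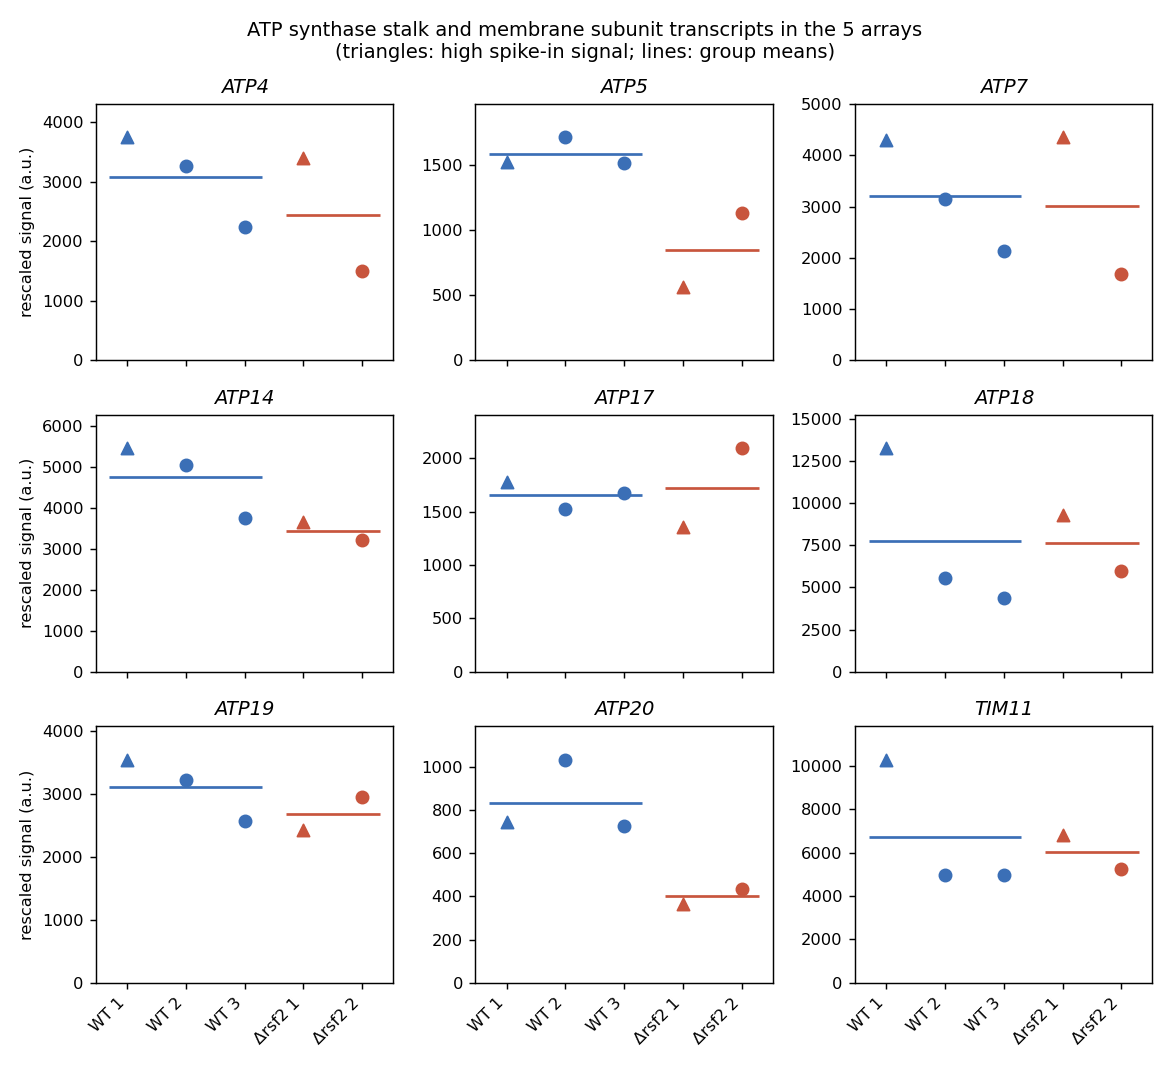
Rescaled signal (arbitrary units, linear axes from 0) of the 9 subunit transcripts in wild-type replicates 1 to 3 (blue) and Δrsf2 replicates 1 and 2 (red), with lines at the group means and triangles for the high spike-in arrays. ATP5, ATP14 and ATP20 show both red points under all blue points, and ATP4 and ATP7 show 1 red point high and 1 low.

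Among the stalk genes, ATP5 (YDR298C) encodes the subunit known as OSCP, which ties the stalk to the top of the F1 head. Its signal was 1521, 1713 and 1512 in the wild type, with 561 and 1131 on the Δrsf2 arrays. The wild-type arrays lay close together and both mutant arrays lay below them, with replicate 1 much the lower. Means were 1582 ± 113 (SD, n = 3) and 846 ± 403 (SD, n = 2), so that the mutant stood at 50.4% of the wild type by geometric mean. The log2 difference was -0.99 ± 0.45 (SE), with an unadjusted limma p of 0.0501. The mutant arrays differed from each other by 2.01-fold, as much as the groups did by 1.98-fold.

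ATP14 (YLR295C), which encodes subunit h, was the other stalk gene without overlap. On the brighter of its probe sets the signal was 5444, 5028 and 3754 in the wild-type arrays and 3639 and 3198 in the mutant ones. The groups were thus separated only by the small step from 3639 to 3754. The log2 difference was -0.46 ± 0.52 (SE), smaller than its error. The second probe set read 4943, 4085 and 3755 in the wild type, with 4008 and 2357 on the Δrsf2 arrays, and there the groups overlapped because Δrsf2 replicate 1 lay above wild-type replicate 3. Its log2 difference was also -0.46, so the probe sets differ in whether the groups overlap and not in the size of the difference.

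ATP4 (YPL078C) encodes subunit b, the long rod of the stalk that is anchored in the membrane, and ATP7 (YKL016C) encodes subunit d beside it. ATP4 read 3752, 3274 and 2241 in the wild-type arrays and 3396 and 1495 in the mutant ones. ATP7 read 4299, 3156 and 2143 in the wild type, with 4357 and 1688 on the Δrsf2 arrays. For both genes Δrsf2 replicate 1 was as high as the upper wild-type arrays and Δrsf2 replicate 2 was below every wild-type array. The mutant arrays differed by 2.27-fold for ATP4 and by 2.58-fold for ATP7, more than the wild-type arrays did from highest to lowest (1.67-fold and 2.01-fold). The log2 differences between groups were -0.42 ± 0.52 and -0.18 ± 0.56 (SE), neither larger than its error. Without Δrsf2 replicate 2 the values were 0.17 and 0.50, and without Δrsf2 replicate 1 they were -1.01 and -0.87. The direction of both thus turned with the mutant array that was kept. That of ATP7 also turned without wild-type replicate 1, where the value was 0.06.

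The profiles of ATP4 and ATP7 over the 5 arrays were the closest pair among the 36 pairs of members. Their root mean square distance was 0.19 on the log2 scale, after each gene's wild-type mean was subtracted. ATP5 had no such likeness to its stalk partners, and its distance to ATP7 was 0.96. The ratio of ATP5 to ATP7, a pair chosen after the values were seen, differed between the groups by -0.81 on the log2 scale with overlap between them. An exact two-sided permutation test over the arrays gave p = 0.6 (0.6 after Benjamini-Hochberg adjustment over the 2 pairs tested), where 0.1 is the smallest p that 3 arrays against 2 allow.

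Of the membrane subunits, ATP20 (YPR020W), which encodes subunit g, stood lowest. Its signal was 746, 1034 and 724 in the wild-type arrays and 364 and 436 in the mutant ones. Both mutant arrays lay well below the lowest wild-type array and close to each other. Means were 835 ± 173 (SD, n = 3) and 400.4 ± 50.7 (SD, n = 2), and the mutant stood at 48.4% of the wild type. The log2 difference was -1.05 ± 0.46 (SE) with an unadjusted limma p of 0.0434, and it was the only member at least 2-fold lower without overlap, as were 2.76% of all genes tested. No member was at least 2-fold higher without overlap, as were 1.77% of all genes. Counted from the lowest, it held rank 189 of 4243 genes and ATP5 rank 219. ATP20 was also the dimmest of the 9, and the only member outside the brightest 1061 of the tested genes.

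TIM11 (YDR322C-A), which encodes subunit e, the partner of subunit g in the dimer, did not show this difference. Its signal was 10299, 4973 and 4970 in the wild type, with 6817 and 5249 on the Δrsf2 arrays. Wild-type replicate 1 stood far above the others, and both mutant arrays lay between it and the other wild-type arrays. The log2 difference was -0.08 ± 0.63 (SE), and it was 0.27 without wild-type replicate 1 and 0.11 when Δrsf2 replicate 2 was left out. The ratio of ATP20 to TIM11, another pair chosen after the values were seen, was compared between the groups. The ratio differed between the groups by -0.96 on the log2 scale, but Δrsf2 replicate 2 overlapped with wild-type replicate 1, and the exact two-sided permutation p was 0.3 (0.6 after Benjamini-Hochberg adjustment over the 2 pairs tested). Here too 0.1 was the smallest p possible, so the test cannot decide whether ATP20 and TIM11 differed in their response.

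ATP18 (YML081C-A), which encodes subunit i/j, resembled TIM11. It read 13254, 5553 and 4374 in the wild-type arrays and 9312 and 5976 in the mutant ones. Here too wild-type replicate 1 was the highest array and Δrsf2 replicate 1 the next, and these are the high spike-in arrays. The wild-type arrays spanned 3.03-fold, the widest range among the 9 genes, and the log2 difference of 0.12 ± 0.71 (SE) lay well within that range. It was -0.03 without wild-type replicate 2, and -0.20 when either wild-type replicate 3 or Δrsf2 replicate 1 was left out. The distance between the profiles of ATP18 and TIM11 was 0.23.

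ATP17 (YDR377W), which encodes subunit f, was the steadiest of the membrane subunits in the wild type. It read 1778, 1525 and 1675 there and 1354 and 2092 in Δrsf2. The mutant arrays lay on either side of the wild-type range, which spans only 1.17-fold. The group difference was 0.02 ± 0.43 (SE) on the log2 scale, and it was -0.29 without Δrsf2 replicate 2. ATP19 (YOL077W-A), which encodes subunit k, read 3544, 3222 and 2570 in the wild type, with 2419 and 2946 on the Δrsf2 arrays. Δrsf2 replicate 1 was lower than every wild-type array and replicate 2 lay within them, with a log2 difference of -0.21 ± 0.47 (SE).

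**Figure D2:**
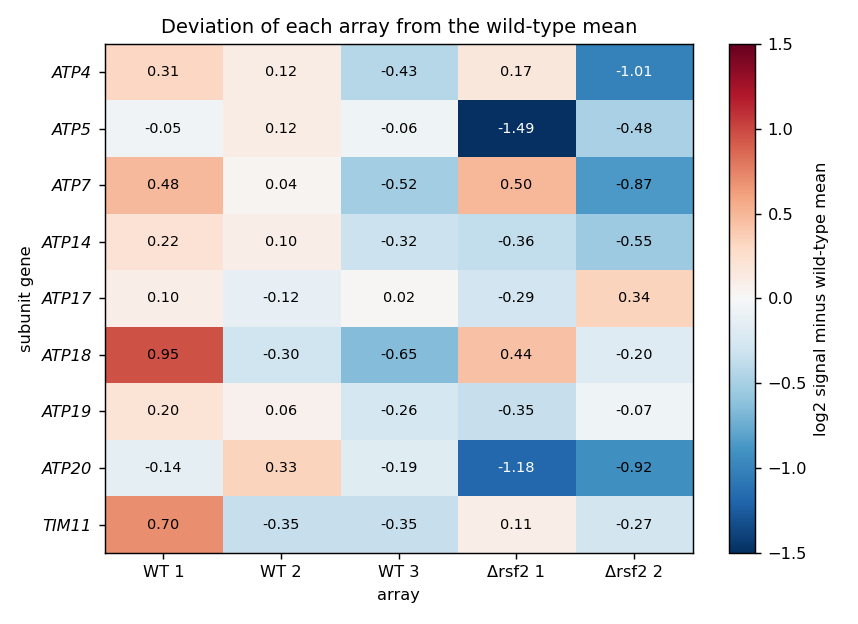
Log2 signal of each array minus the wild-type mean of the gene, for the 9 subunit genes (rows) in the 5 arrays (columns), with blue for lower and red for higher values. ATP20 and ATP5 are at -1.18 and -1.49 in Δrsf2 replicate 1 and at -0.92 and -0.48 in replicate 2, while ATP4 and ATP7 are at 0.17 and 0.50 in replicate 1 and at -1.01 and -0.87 in replicate 2.

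The mutant arrays thus differed over the same genes. Relative to the wild-type mean, 5 members were lower in Δrsf2 replicate 1 and 8 in Δrsf2 replicate 2, and 8 were also lower in wild-type replicate 3. Over all 4243 genes 2323, 2070 and 1143 were lower in these arrays, so that the share of members in Δrsf2 replicate 1 was near that of all genes. The median of the members was -0.29 and -0.48 in Δrsf2 replicates 1 and 2, and it ran from -0.32 to 0.22 over the wild-type arrays. The median of all genes was -0.08 and 0.02 in the mutant arrays and ran from -0.33 to 0.24 in the wild-type ones. The member median of Δrsf2 replicate 1 therefore lay within the wild-type range and that of replicate 2 below it. Stalk members had medians of -0.10 and -0.71 in the mutant arrays and membrane members -0.29 and -0.20.

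Since the high spike-in arrays hold 1 array of each group, the comparison was repeated inside each set. In the high set the member median was -0.55, where the median of all genes was 0.21. In the low set it was -0.44, where that of all genes was -0.11. Bright genes differ from all genes here. Among the 1061 tested genes with the highest mean signal, 8 members among them, the median deviation was 0.16 on wild-type replicate 1. On Δrsf2 replicate 1 it was -0.15. On the low arrays it was -0.06 and -0.09 in wild-type replicates 2 and 3 and -0.11 in Δrsf2 replicate 2. ATP20 had -1.03 in the high set and -0.99 in the low set, ATP5 -1.44 and -0.51, and ATP14 -0.58 and -0.44. That these 3 were lower in both sets follows from groups that do not overlap, so only the sizes are read here. ATP4 had -0.14 and -0.86. ATP19, TIM11, ATP18 and ATP17 were lower in the high set (-0.55, -0.60, -0.51 and -0.39) and higher in the low set (0.03, 0.08, 0.28 and 0.39), and ATP7 was at 0.02 and -0.62. These values rest on 1 mutant array each. The high set, with 1 array a group, has no test, and in the low set, fitted with the lone mutant array assumed to vary like the wild type, no member passed, with a smallest limma adjusted p of 0.127 for ATP20.

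**Figure D3:**
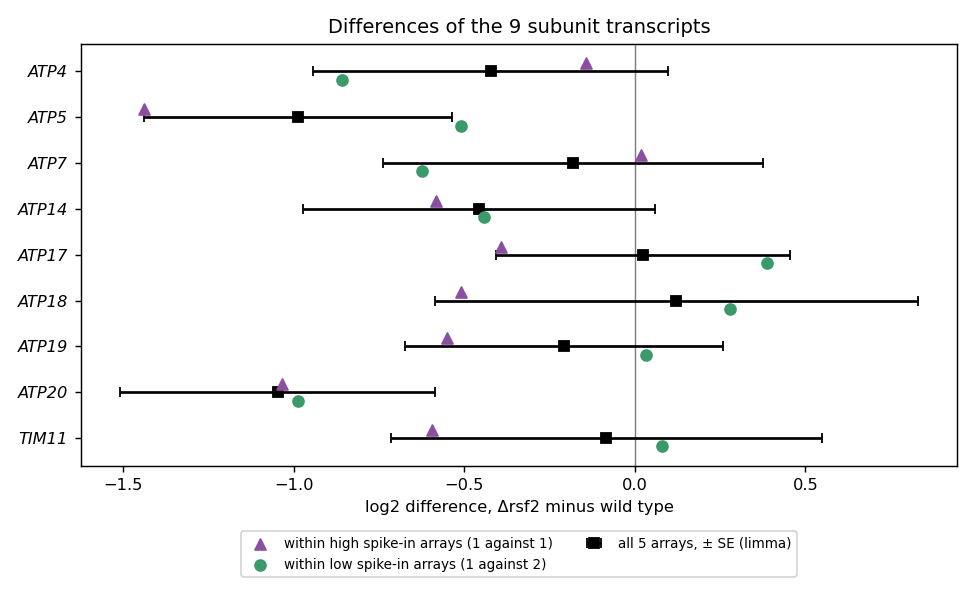
Log2 difference of Δrsf2 minus wild type for each of the 9 genes over all 5 arrays (squares, with bars for the SE of the limma fit), within the high spike-in arrays (triangles) and within the low ones (circles). For ATP20 the 3 symbols nearly coincide, from -1.05 to -0.99, and for ATP17, ATP18, ATP19 and TIM11 the triangle is left of 0 and the circle right of it.

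The members are bright transcripts, and 8 of the 9 lie among the 1061 tested genes with the highest mean signal, from 938 upward. Of these bright genes 58.4% were lower in Δrsf2 by value and 13.8% were lower without overlap, more than over all genes. Their median log2 difference was -0.09, where that of all genes was -0.03 and that of the 9 members -0.21. Bright genes also lay differently on the wild-type arrays: the median deviation of wild-type replicate 1 was 0.16 among them and -0.33 over all genes. With quantile normalisation, which gives all arrays one distribution of signals, the member median was -0.20. There 4 members, ATP5, ATP14, ATP19 and ATP20, were lower without overlap, against 12.7% of all genes, and ATP5 was at -0.93.

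Coding lengths of the members are short, from 180 bases for ATP18 to 735 for ATP4 in the RefSeq gene table of assembly R64. The 331 tested genes of up to 400 bases, 6 members among them, had a median log2 difference of 0.02, and the next 868 genes, of up to 800 bases and with the other 3 members, had -0.11. Across the 4243 genes the deviation from the wild-type mean had a Spearman correlation with length of 0.02 and 0.10 in Δrsf2 replicates 1 and 2 and of -0.20, 0.15 and 0.16 in wild-type replicates 1 to 3. These describe genes on shared arrays, which are not independent replicates. With the trend of signal on length removed from each array, a setting chosen after the data were seen, ATP20 was at -0.99 and ATP5 at -0.89. ATP14 then overlapped between the groups.

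Other genes of the enzyme and of its surroundings were read from lists, and none of their members passed the test (limma adjusted p of 1.00 throughout). For the counts in these lists, 52.3% of all genes tested were lower by value and 8.27% were lower without overlap. Among the 1061 brightest genes these shares were 58.4% and 13.8%. All 5 genes of the F1 head and central stalk were lower by value, and their median log2 difference was -0.39. ATP2, the catalytic beta subunit, was the lowest at -1.32 ± 0.51 (SE), with 2404, 2358 and 2212 in the wild-type arrays and 531 and 1634 in the mutant ones. Like ATP5, it was tight in the wild type and lower in Δrsf2 replicate 1 than in replicate 2. ATP15, the small epsilon subunit, was the highest at -0.06 ± 0.58. ATP1 (alpha subunit, -0.39) and ATP16 (delta subunit, -0.38) were lower without overlap as well.

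The inhibitor proteins, which block ATP hydrolysis or assist in that, had 1 of 3 genes lower and a median of 0.22, from INH1 at -0.25 ± 0.52 to STF2 at 0.90 ± 0.83. STF2 rested on Δrsf2 replicate 1, at 27426 against 6657 in replicate 2 and 4843 to 10650 in the wild type. Of the mitochondrially encoded subunits only OLI1, the subunit of the rotating ring, passed the filter. It read 118.8, 721.5 and 699.6 in the wild type, with 13.5 and 198.9 on the Δrsf2 arrays. Δrsf2 replicate 1 was under the floor, and the groups overlapped at Δrsf2 replicate 2 and wild-type replicate 1. The probe sets of ATP6 and ATP8 stayed at or below 35.0 on every array. How well poly(A) RNA represents transcripts made inside mitochondria was not tested, so the signals of OLI1, ATP6 and ATP8 are not read as transcript levels.

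Of 14 assembly and expression factors 12 were tested, and 10 of these were lower, with a median of -0.28. INA17, which helps to join the peripheral stalk to the rest of the enzyme, was the lowest at -0.99 ± 0.59 (SE) and was lower without overlap, at 113.9 and 124.0 in Δrsf2 against 145.2, 287.3 and 316.5. Its partner INA22 was at -0.24 ± 0.63. NCA3 was the highest at 0.63 ± 0.64. Among the carriers that bring ADP and phosphate to the enzyme, 3 of 4 tested genes were lower, with a median of -0.81. PET9, the main ADP/ATP carrier, was the lowest at -1.28 ± 0.51 without overlap, and AAC1, a minor one, the highest at 0.24 ± 0.53.

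All 6 genes of the MICOS complex, which shapes crista junctions, were lower by value, with a median of -0.48. MIC60, the core of the complex, was at -1.15 ± 0.55 (SE), with 337.1, 446.8 and 383.0 in the wild-type arrays and 161.3 and 186.9 in the mutant ones. MIC19 (-0.98) and MIC12 (-0.55) were also lower without overlap, and MIC26 was the highest at -0.07 ± 0.47. Within the high and the low spike-in arrays MIC60 was at -1.06 and -1.15, nearly the same in both, as was ATP20.

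Complex III had 8 of 9 genes lower with a median of -0.40, from QCR2 at -0.77 ± 0.50 (SE) to COR1 at 0.24 ± 0.45, and QCR2 and QCR8 (-0.43) were lower without overlap. Complex IV had 5 of 8 tested genes lower with a median of -0.29, from COX5A at -1.24 ± 0.45 to COX12 at 0.29 ± 0.71, and COX5A, COX6 (-0.95) and COX9 (-0.74) were lower without overlap. The median of the ATP synthase stalk genes (-0.44) lay near these, and that of the membrane genes (-0.08) near the median of all genes. These medians were not tested against each other, and the order of stalk and membrane genes turned between the spike-in sets, with -0.36 and -0.55 in the high set and -0.57 and 0.08 in the low one. Of the HAP genes, whose products form an activator of respiratory genes, HAP4, the regulated subunit, was lowest at -1.29 ± 0.44, at 1784, 1894 and 1461 in the wild type and 916 and 530 on the mutant arrays. HAP2 was the highest at 0.35 ± 0.58, and the median of the 4 genes was -0.74.

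**Figure D4:**
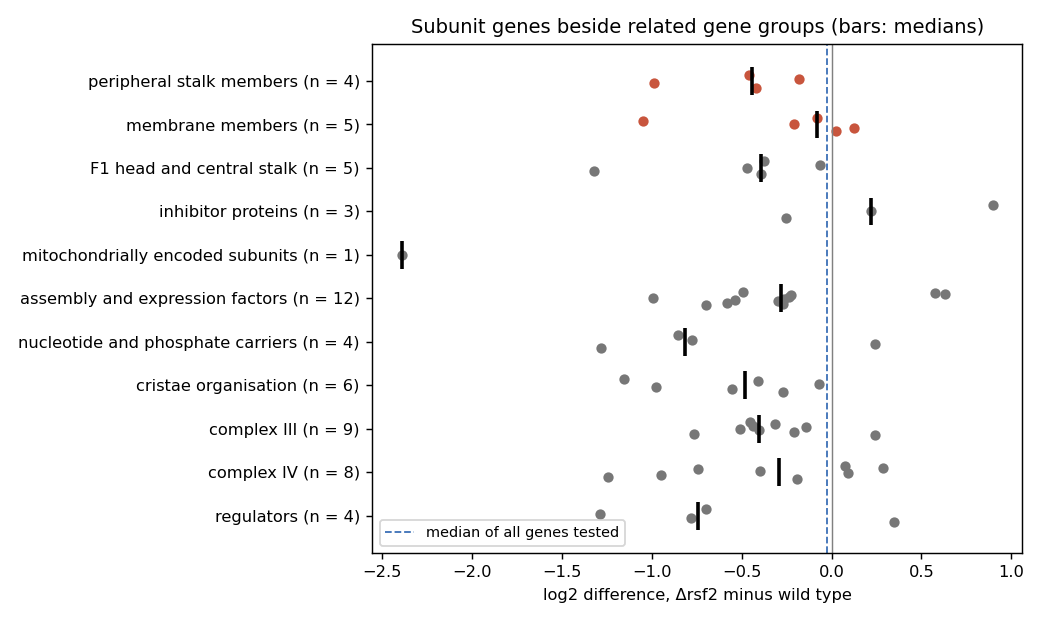
Log2 difference of Δrsf2 minus wild type for each tested gene of the 2 subunit groups (red) and of the related lists (grey), with a black bar at each median and a dashed line at the median of all genes tested, -0.03. The stalk bar is at -0.44 and the membrane bar at -0.08, with ATP20 alone near -1.05 among the membrane genes, and within the high spike-in arrays the order of these medians is turned (-0.36 and -0.55).

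Genes with a pattern most like the mean profile of the 9 members over the 5 arrays were sought among all genes tested. The nearest was SSZ1, at a root mean square distance of 0.02 on the log2 scale, followed by EMA19 at 0.06, SND3 and QCR9 at 0.08 and RIB3 at 0.09. QCR9, a subunit of complex III, was the only one of these on the related lists. Of the members, ATP14 lay nearest to their own mean at 0.09, and ATP5 farthest at 0.58.

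ATP5, ATP14 and ATP20 were lower in Δrsf2 in all 21 alternative settings. Leaving out arrays could not turn their sign, since their groups did not overlap. Apart from the values as deposited, ATP20 ran from -1.26 to -0.88, ATP5 from -1.49 to -0.48 and ATP14 from -0.62 to -0.35. The other 6 genes changed sign in at least 1 setting. The smallest adjusted p of any member in any setting with a test was that of ATP20 without the high spike-in arrays, within a range of 0.127 to 1.00 for that gene.

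**Figure D5:**
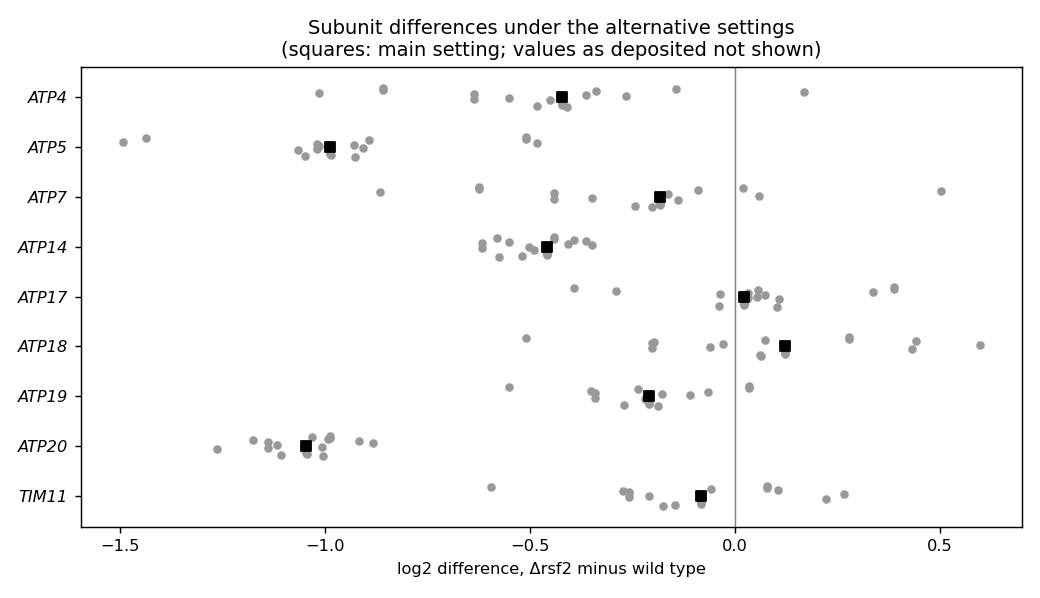
Log2 difference of Δrsf2 minus wild type for each of the 9 genes in the main setting (black squares) and in the alternative settings (grey points), without the setting that left the deposited values unscaled. All points of ATP5, ATP14 and ATP20 are below 0, and those of the other 6 genes lie on both sides of it.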

How the data were processed

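The authors deposited 1 intensity for each probe set, on a linear scale. MAS5 produced it, per the submitters' processing notes, and its version, settings and detection calls are not given in the sources used here. Values cover 9335 probe sets, 60 of them controls. The platform annotation pairs 6504 with 1 gene, 328 with several and 2443 with none, and each of the 6504 was found in the RefSeq table of assembly R64 by gene identifier. Coordinates are left out because the array's build is not named.

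Each array was rescaled to a 2% trimmed mean of 500, a floor was set at the 10th percentile (28.1), and log2 was taken. The brightest probe set stood for a gene, and genes under the 25th percentile of mean signal (128.8) were dropped, apart from RSF2. Groups, from the sample titles, were compared with limma 3.58.1 in R 4.3.3 (lmFit, eBayes with trend, group as the only term, Benjamini-Hochberg over 4243 genes). The fit was checked on simulated data with independent errors of the same spread for every gene, which these arrays need not have. Named were all members, RSF2, strain markers, from each list the lowest and the highest gene and any gene at least 2-fold apart without overlap, and the 5 genes most like the members. Genes named beyond this rule (ATP1, ATP16, INA22, MIC12, MIC19, QCR8, COX6, COX9) were chosen after their values were seen. Members and lists were chosen with earlier results of these data known. Whether biological replicates were separate cultures is not said further, and the p-values measure the spread between these samples.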

Additional observations from a re-analysis of the deposited data

How the results depend on the processing

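The number of genes past an adjusted p of 0.05 in limma was 0 of 4243, and 0 to 60 when 1 array was left out (55 without Δrsf2 replicate 1, 60 without replicate 2, where the lone mutant array is assumed to vary like the wild type). It was 1 (RSF2) with no floor, 1 (RSF2) with a stricter signal filter and 442 without the high spike-in arrays, an alternative chosen after seeing the data. No member was among the calls in any of these settings. Genes at least 2-fold apart without overlap numbered 192 (60.9% lower). They numbered 229 with quantile normalisation and 216 with arrays centred on their medians (72.1% and 71.8% lower), 1004 in the values as deposited, 324 without a signal filter (43.5% lower), 119 with the stricter one (79% lower), 860 without the high spike-in arrays, and 205 to 841 with 1 array left out (398 without wild-type replicate 1, 76.1% of them lower; 326 without replicate 3, 38% lower; 841 and 831 without Δrsf2 replicates 1 and 2, 47.3% and 60.8% lower). Several of these settings use fewer genes or arrays. In the values as deposited, where Δrsf2 replicate 1 keeps its trimmed mean of 100.1, 100% of the 1004 genes were lower. The cause of the changes in these counts was not tested.

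The member median of -0.21 became -1.37 in the values as deposited (all genes: -1.19) and -0.55 within the high spike-in arrays (all genes: 0.21). With 1 array left out it ran from -0.48 to -0.11, and the median of all genes ran from -0.20 to 0.05. Members lower by value numbered 5 without wild-type replicate 1, without Δrsf2 replicate 2 and without both high spike-in arrays, and 9 without wild-type replicate 2. The share of all genes lower by value was not counted in these settings, so these counts are not read further. Signs turned as follows. With 1 array left out, ATP4 ran from -1.01 to 0.17, ATP7 from -0.87 to 0.50, ATP17 from -0.29 to 0.34, ATP18 from -0.20 to 0.60 and TIM11 from -0.27 to 0.27. ATP17 was at -1.14 and ATP18 at -1.04 in the values as deposited, and ATP17 at -0.038 with arrays centred on their medians. Within the high spike-in arrays ATP7 was at 0.019, ATP17 at -0.39 and ATP18 at -0.51. Within the low ones, and so without the high ones, ATP19 was at 0.034 and TIM11 at 0.079. TIM11 was at 0.22 with array weights, and ATP18 at -0.059 with a block for the spike-in set. The cause of these turns was not tested.

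Replicate numbers 1 and 2 occur in both groups, but nothing says that they mark a shared culture or day. Deviations of same-numbered arrays correlated across genes at 0.273 for replicate 1 and -0.0914 for replicate 2. Crossed pairs gave -0.273 for wild-type replicate 1 with Δrsf2 replicate 2, and 0.0914 for wild-type replicate 2 with Δrsf2 replicate 1. These are mirror values by construction, since 2 mutant arrays deviate oppositely from their mean. The replicate 1 arrays are also the high spike-in arrays, so replicate number and spike-in set cannot be told apart there. With the replicate block, which leaves 1 residual degree of freedom and in effect drops wild-type replicate 3, 2 genes passed (HPF1 and SHH3), the member median was -0.44 and ATP18 was at -0.20.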
